A study of Mus musculus with 72 samples.

Results

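The livers described here are the control livers taken at 20:00 and at 08:00: the 6 libraries labelled as control at 20:00 were set against the 6 labelled as control at 08:00, with sex as a covariate, which makes 12 of the 72 libraries in the study. They came from wild type C57bl6 mice, an inbred laboratory strain, with 3 females and 3 males at each clock time, 8 to 16 weeks old and housed in a cycle of 12 h light and 12 h dark with free access to food. All groups, the controls included, were moved from chow to a high-fat diet (Teklad TD.88137, 42% of calories from fat) at the start of week 1 of the control or misalignment paradigm. The study asked how the 2 sexes respond to chronic circadian misalignment, and sampled control and misaligned mice of both sexes at 0, 4, 8, 12, 16 and 20 h, with 3 replicates in each of 24 groups. The misalignment schedule and the hour of lights on are not given in the sources used here, so 08:00 and 20:00 are clock times only. The labels number the replicates but name no animal, so p-values measure the spread between these samples.

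RNA came from pieces of whole liver, was selected for poly(A) tails and was sequenced in pairs of 150 bp reads with strand kept. The deposited totals are nearly equal over libraries, so the depth of the counts used here differs little between groups. Whether the depth of sequencing was alike is not given in the sources used here. The 12 libraries held 11551524 to 12202627 counts on genes (median 11895465.5), and 18168 to 19086 genes had at least 1 count. Xist had 2508 to 4573 counts in females and 0 to 4 in males, and 4 Y-linked genes (Ddx3y, Eif2s3y, Kdm5d and Uty) were at 0 in all females, which fits the labelled sex of every library. Sex carried the first principal component of log2 expression (42.1% of the variance) and clock time the second (18.2%). The male 08:00 library of replicate 2 stood apart on the first component, at -5.3 against 31.17 to 58.69 in the other males, so counts are also given without it. Hepatocyte markers, among them albumin (Alb) and transthyretin (Ttr), summed to 76100 to 136000 CPM (counts scaled to a common library size) at 08:00 and to 75400 to 123000 CPM at 20:00.

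The circadian clock of mammalian cells is a transcription loop. The activators Clock or Npas2 pair with Arntl (BMAL1) and switch on the Per and Cry genes through E-box sequences, and Per and Cry proteins then repress their own activators. In a linked loop the receptors Nr1d1 and Nr1d2 (REV-ERB alpha and beta) repress Arntl, Npas2 and Clock through the same DNA elements at which ROR receptors activate them. Dbp, Tef and Hlf act on D-box sequences, and in liver many genes of lipid, glucose, heme and xenobiotic metabolism follow the clock or the daily rhythm of feeding.

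Between the 2 clock times, genes of the clock loop had large differences, Npas2 upwards and Dbp downwards. Of 14065 genes tested, 551 (3.92%) were higher and 682 (4.85%) lower at 20:00 by edgeR's quasi-likelihood test at an adjusted p under 0.05. The genes called higher included Npas2, Arntl, the choline kinase Chka and the mitochondrial protease subunit Clpx, and those called lower included Dbp, Nr1d1, Ciart and Per3. Differences of at least 2-fold made up 162 of the higher and 102 of the lower calls, and those of at least 4-fold 33 and 26. The median log2 difference was 0.75 over the higher and -0.58 over the lower genes, against 0.005 over all genes tested. The difference had the same sign in females and males for 550 of the 551 higher and 680 of the 682 lower genes. The calls rest on both sexes together, so this agreement follows largely from how the genes were chosen. The 6 libraries of each clock time did not overlap for 487 genes (3.46% of those tested), of which 214 were called higher and 229 called lower. Scaling by library totals in place of trimmed mean (TMM) factors gave 597 higher and 403 lower genes and moved the share of higher genes among calls from 44.7% to 59.7%. Leaving out 1 library moved 1 or both counts by over 1.5 times in several refits. Without female 20:00 replicate 2 there were 376 higher and 362 lower genes, and only the lower count moved that far. Both counts did without female 20:00 replicate 3 (866 and 1038) and without male 08:00 replicate 1 (356 and 372). The same held without male 20:00 replicate 1 (345 and 338) and without male 20:00 replicate 2 (361 and 312). Without the male 08:00 library that stood apart, 436 genes were higher and 454 lower, and again only the lower count moved that far.

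**Figure D1:**
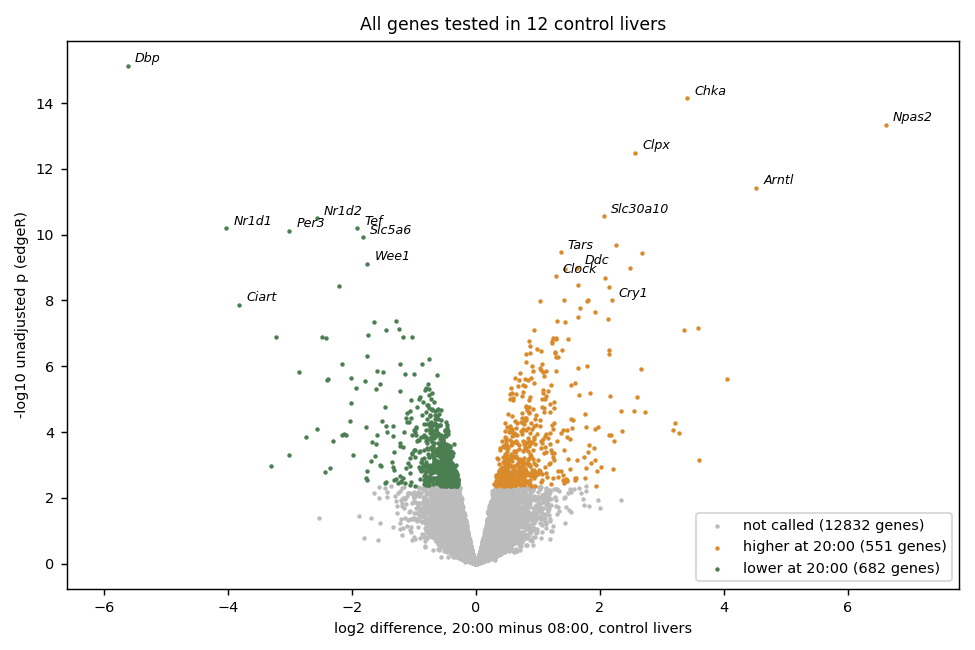
Each point is 1 of the 14065 genes tested, with the log2 difference between 20:00 and 08:00 in control livers on the x axis and -log10 of the unadjusted edgeR p on the y axis. The 551 genes called higher lie to the right and the 682 called lower to the left, with Npas2, Arntl and Chka at one edge and Dbp and Nr1d1 at the other.

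Of the 20 core clock genes tested, 5 were called higher and 6 lower at 20:00, beside 3.92% and 4.85% of all genes, and the list's median was 0.04 (0.005 over all genes). The same numbers were called without the male library that stood apart. The activators were high at 20:00. Arntl (ENSMUSG00000055116, chromosome 7, 113207465 to 113314126, plus strand, GRCm38) was between 0.5 and 2.23 CPM at 08:00 (median 1.58) and between 27.7 and 44.9 CPM at 20:00 (median 34.3). Every library of 20:00 was above every library of 08:00, and the log2 difference was 4.52 ± 0.23 (SE; edgeR adjusted p = 1.05e-08). Npas2 (ENSMUSG00000026077, chromosome 1, 39193731 to 39363236), which can stand in for Clock, was listed at 0 CPM in 2 of the 6 libraries of 08:00 and at no more than 0.514 CPM in the others. At 20:00 it was between 12.9 and 26.8 CPM (median 18.8), a log2 difference of 6.61 ± 0.31 (edgeR adjusted p = 2.13e-10). Clock, their partner and relative, lay between 12.8 and 15.9 CPM at 08:00 and between 27.2 and 37.0 CPM at 20:00, again without overlap (log2 1.29 ± 0.10, edgeR adjusted p = 1.37e-06). Rora, which encodes a ROR receptor, differed by 0.28 ± 0.14 and was not called (edgeR adjusted p = 0.216).

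The repressors were split. Nr1d1 (ENSMUSG00000020889, chromosome 11, 98767932 to 98775333, minus strand) had 51.2 to 123 CPM at 08:00 (median 67.9) and 3.40 to 6.25 CPM at 20:00 (median 4.40). All 6 livers of 08:00 were above all 6 of 20:00, and the log2 difference was -4.03 ± 0.23 (edgeR adjusted p = 1.01e-07). Its relative Nr1d2 went from 56.5 to 90.4 CPM at 08:00 to 8.37 to 16.2 CPM at 20:00, a log2 difference of -2.57 ± 0.15 (edgeR adjusted p = 6.46e-08). Per3, of the period family, lay between 28.7 and 76.8 CPM at 08:00 and between 2.59 and 11 CPM at 20:00 (log2 -3.02 ± 0.19, edgeR adjusted p = 1.06e-07). In Per2 the difference was smaller, -0.94 ± 0.19 (edgeR adjusted p = 0.00699), and the groups met, with 41.2 CPM as the lowest value of 08:00 and 42.4 CPM as the highest of 20:00. Per1 was not called: its log2 difference was -0.52 ± 0.21 (edgeR adjusted p = 0.135), and it was called only when female 20:00 replicate 1, its highest library of 20:00, was left out. Cry1 went the other way from the Per genes, from 5.48 to 11.9 CPM at 08:00 to 25.5 to 57.9 CPM at 20:00 (log2 2.19 ± 0.19, edgeR adjusted p = 5.30e-06). Cry2 was not called (-0.37 ± 0.14, edgeR adjusted p = 0.103). Ciart, a repressor of Clock and Arntl, fell by 3.82 on the log2 scale, with 10.3 to 32.8 CPM at 08:00 and 0.696 to 2.87 CPM at 20:00. Bhlhe41 (DEC2) fell by 2.42, from a median of 2.70 CPM to 0.463 CPM. Its relative Bhlhe40 (DEC1) had 165 to 248 CPM at 08:00 and 128 to 290 CPM at 20:00, with a difference of 0.025 ± 0.14 (edgeR adjusted p = 0.93). Neither kinase of PER proteins on the list was called, Csnk1d at 0.18 ± 0.09 and Csnk1e at 0.21 ± 0.14, nor the F-box gene Fbxl21 (-0.42 ± 0.29), nor Arntl2 (0.05 ± 0.40).

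**Figure D2:**
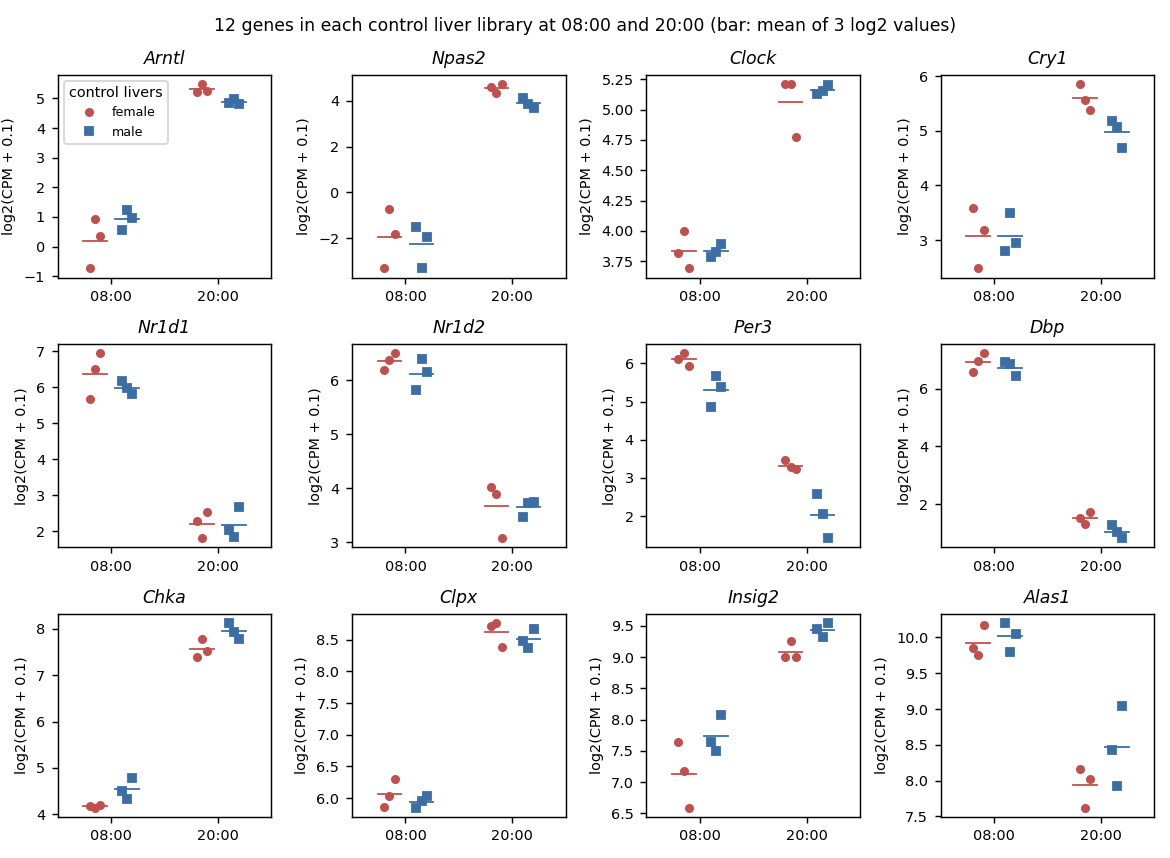
Expression of 12 genes in each of the 12 control libraries, as log2 of CPM plus 0.1, at 08:00 and 20:00, with circles for females, squares for males and a bar for the mean of 3 log2 values. In every panel the 6 points of 20:00 lie apart from the 6 points of 08:00, upwards for Arntl, Npas2, Clock, Cry1, Chka, Clpx and Insig2 and downwards for Nr1d1, Nr1d2, Per3, Dbp and Alas1.

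Promoter windows are shown for clock genes whose sequence holds an element through which the clock is known to act. They are RefSeq sequences of GRCm38.p6, 5′ to 3′ on the gene's strand, with the searched motif in capitals. Motifs were the E-box CACGTG, the D-box TTATGNAA and the ROR element TNGGTCA, sought on both strands in 250 bases before and 50 after each start. A match is only a run of letters, and the absence of one says nothing beyond these 300 bases. Of 48 clock, output and top-ranked genes with a promoter entry, 9 held an E-box, 4 a D-box and 8 a ROR element. Dbp, Nr1d1, Nr1d2, Usp2, Upp2, Npas2, Clock and Chka held no match. For the genes low at 20:00, Ciart (chr3:95882317-95882366, and chr3:95882259-95882308 nearer its start, where another E-box follows in lower case), Tef (chr15:81802524-81802573) and Bhlhe41 (chr6:145865546-145865595) carried E-boxes, and Per3 carried a pair of D-boxes (chr4:151044841-151044892 and chr4:151044794-151044845).
Ciart, far E-box: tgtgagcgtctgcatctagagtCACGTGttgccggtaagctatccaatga
Ciart, near E-box: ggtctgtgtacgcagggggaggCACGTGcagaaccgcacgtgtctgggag
Tef, E-box: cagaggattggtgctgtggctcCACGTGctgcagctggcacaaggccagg
Bhlhe41, E-box: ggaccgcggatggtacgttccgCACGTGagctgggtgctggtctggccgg
Per3, far D-box: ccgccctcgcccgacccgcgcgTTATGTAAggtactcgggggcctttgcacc
Per3, near D-box: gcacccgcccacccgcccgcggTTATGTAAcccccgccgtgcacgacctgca
Cry1, which was high at 20:00, carried an E-box too (chr10:85185087-85185136), and Per1, which was not called, carried an E-box (chr11:69098761-69098810) and a D-box (chr11:69098903-69098948). E-boxes were also held by Adcy1, Lonrf3 and Tars, all higher at 20:00, and by Tspan4 (windows not shown). The remaining D-boxes were in Ddc, higher at 20:00, and Nrg4, lower. Arntl had a ROR element just after its downstream start (chr7:113207531-113207557). ROR elements were also held by Cry2, Ddc, Dhrs9, Leo1, Nfil3, Per3 and Tef (windows not shown).
Cry1, E-box: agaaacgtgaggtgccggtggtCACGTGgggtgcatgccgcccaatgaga
Per1, E-box: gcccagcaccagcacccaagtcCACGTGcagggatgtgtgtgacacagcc
Per1, D-box: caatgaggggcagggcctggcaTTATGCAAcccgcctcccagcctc
Arntl, ROR element: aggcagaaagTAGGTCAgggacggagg

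Promoter sequences were at hand for 10230 of 14061 tested genes with a unique symbol. The E-box stood in 17.2% of 536 promoters of genes lower at 20:00 and in 9.5% of 420 of genes higher at 20:00, beside 11.7% over all tested genes and 8.1% over all 27025 genes of the promoter table. Among genes lower by at least 2-fold it stood in 17 of 69 (24.6%), and among those higher by at least 2-fold in 15 of 116 (12.9%). The D-box stood in 10 of those 69 (14.5%) and in 5 of 116 genes higher by at least 2-fold (4.3%). Over all lower genes its share was 4.3% (23 of 536) and over all higher genes 2.9% (12 of 420), near the 2.8% of all tested genes. ROR elements were at 12.9% of higher and 13.6% of lower genes, near the 11.7% over all tested genes. At 2-fold or more they were at 13.8% of higher (16 of 116) and 8.7% of lower genes (6 of 69). These shares describe the windows and were not tested.

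Of 20 genes of the PAR bZIP and clock output list, 9 were lower and 5 higher at 20:00, beside 4.85% and 3.92% of all genes, and the list median was -0.54. The list gathers genes known to be rhythmic in liver, so its counts say little that is independent of that choice. Dbp (ENSMUSG00000059824, chromosome 7, 45705088 to 45710203) had the largest fall of the named genes. It stood between 86.8 and 150 CPM at 08:00 (median 118) and between 1.67 and 3.19 CPM at 20:00 (median 2.35), which is 49.1-fold higher at 08:00 (log2 -5.62 ± 0.16, edgeR adjusted p = 1.02e-11). Tef fell by 1.92 and Hlf, the remaining PAR bZIP factor, by 0.63 on the log2 scale (edgeR adjusted p = 1.01e-07 and 0.0108). Nfil3 (E4BP4), which competes with them at D-boxes, moved the other way, from 10.6 to 19.4 CPM at 08:00 to 34.3 to 65.2 CPM at 20:00 (log2 1.68 ± 0.16, edgeR adjusted p = 8.09e-06). Among the outputs, the deubiquitinase Usp2 fell by 2.39, the kinase Wee1, which holds cells before mitosis, by 1.75, and Por, the electron donor of cytochrome P450 enzymes, by 1.59. Upp2, a uridine phosphorylase, fell by 2.56, with 206 to 774 CPM at 08:00 and 19.7 to 163 CPM at 20:00. In each of these 4 genes all libraries of 08:00 lay above all of 20:00. Ypel2, Leo1, Lonrf3 and the vasopressin receptor Avpr1a were higher, by 2.15, 1.09, 1.65 and 1.48 on the log2 scale.

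Chka, the kinase that opens phosphatidylcholine synthesis, had the smallest p of any higher gene. It lay between 17.6 and 27.6 CPM at 08:00 (median 19.1) and between 167 and 280 CPM at 20:00 (median 220), 10.6-fold higher (log2 3.41 ± 0.11, edgeR adjusted p = 5.02e-11). Of 11 genes of phosphatidylcholine synthesis tested, Chka among them, 2 were higher and 2 lower, beside 3.92% and 4.85% of all genes, and 8 had an unadjusted p under 0.05. The choline transporter Slc44a1 rose by 0.50 ± 0.11, while the ethanolamine kinase Etnk2 fell by 0.97 and the acyltransferase Lpcat3 by 0.41. The list median was -0.10.

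Lipid genes were called in both directions, and the counts below stand beside 3.92% higher and 4.85% lower of all genes. Insig2, which helps to hold SREBP in the endoplasmic reticulum, had 96.5 to 268 CPM at 08:00 and 510 to 748 CPM at 20:00, without overlap (log2 1.79 ± 0.16, edgeR adjusted p = 5.30e-06). Of 21 genes of fatty acid synthesis, 2 were higher and 1 lower, and of 26 cholesterol genes 0 were higher and 2 lower, Fdft1 (-0.68 ± 0.15) and Stard4 (-0.77 ± 0.22). Elovl3, an elongase with male-biased expression, rose by 1.44 ± 0.38, with 5.03 to 52.4 CPM at 08:00 and 15.7 to 320 CPM at 20:00, and the groups overlapped. The calls of Elovl3, Stard4 and the citrate carrier Slc25a1 (-0.57 ± 0.15) were lost in 10, 11 and 8 of the 12 refits that left out 1 library each, with edgeR adjusted p up to 0.105 without male 08:00 replicate 1 for Elovl3, and up to 0.123 and 0.0788 without male 20:00 replicate 2 for the others. Fasn and Srebf1, the synthase and the master regulator of lipogenesis, were not called, and their libraries spread widely: Fasn ran from 695 to 4470 CPM at 08:00 and from 412 to 5640 CPM at 20:00. Among 23 genes of triglycerides and lipid droplets the lipases Pnpla2 (-0.76 ± 0.09, edgeR adjusted p = 0.000122) and Lipe (-1.17 ± 0.24, edgeR adjusted p = 0.00962) were lower. Plin5, which coats lipid droplets at mitochondria, was higher (1.23 ± 0.22, edgeR adjusted p = 0.00379).

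Of 38 genes of fatty acid oxidation tested, 8 were lower at 20:00 and 1 higher, beside 4.85% and 3.92% of all genes, and 29 were not called. The median was -0.22 (-0.14 with scaling by library totals). Cpt1a, which admits fatty acids to mitochondria, had 536 to 898 CPM at 08:00 (median 764) and 396 to 578 CPM at 20:00 (median 444), a log2 difference of -0.67 ± 0.12 (edgeR adjusted p = 0.00342). The ketone enzyme Bdh1 lay between 415 and 463 CPM at 08:00 and between 235 and 326 CPM at 20:00, without overlap (-0.62 ± 0.10, edgeR adjusted p = 0.00175). The carnitine transporter Slc22a5 fell by 0.68, the thioesterases Acot4, Acot2 and Acot3 by 1.13, 0.55 and 2.44, the fatty acid binding protein Fabp1 by 0.65 and the isomerase Eci2 by 0.45. Acot genes lie in a cluster of similar sequence, so their split of reads is uncertain, and the call of Acot3 was lost in 4 of 12 refits without 1 library (edgeR adjusted p up to 0.0839 without male 20:00 replicate 1). Fabp1 and Eci2 each lost theirs in 9 of 12 (edgeR adjusted p up to 0.108 without male 20:00 replicate 1 and 0.12 without male 20:00 replicate 2). The member that rose was Pdk4, a kinase that shuts off pyruvate oxidation, from 12.2 to 34.0 CPM at 08:00 to 34.5 to 88.1 CPM at 20:00 (log2 1.54 ± 0.27, edgeR adjusted p = 0.00417). Without the male library that stood apart, 6 members were lower and 1 higher.

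Of 15 genes that store and release glycogen, 2 were higher, 4 lower and 9 not called, beside 3.92% higher and 4.85% lower of all genes, with the same numbers without the male library that stood apart. Ppp1r3c and Ppp1r3b, which bring protein phosphatase to glycogen and favour its storage, were the higher pair. Ppp1r3c went from 20.4 to 42.7 CPM at 08:00 to 59.5 to 233 CPM at 20:00 (log2 2.14 ± 0.23, edgeR adjusted p = 7.51e-05), without overlap, and Ppp1r3b rose by 0.94 ± 0.19. The liver glycogen synthase Gys2 was lower, with 218 to 342 CPM at 08:00 and 132 to 206 CPM at 20:00 (-0.71 ± 0.11, edgeR adjusted p = 0.000729). The phosphorylase kinase subunit Phka2, the starch-binding protein Stbd1 and Ugp2, which makes UDP-glucose, fell by 0.50, 0.53 and 0.45. Of 14 gluconeogenesis genes edgeR called 0 (5 at an unadjusted p under 0.05; DESeq2 called 1 in each direction and limma-voom 1 lower), and Pck1, the gate enzyme of the pathway, differed by -0.32 ± 0.38. Of 19 glycolysis genes 2 were lower, the glucose transporter Slc2a2 (-0.49 ± 0.11) and Pdk2 (-0.55 ± 0.13).

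Of 18 genes of NAD synthesis and sirtuins, 8 were lower and 1 higher at 20:00, beside 4.85% and 3.92% of all genes, and the median was -0.33. NAD is the cofactor of the sirtuin deacylases, and Nampt is the rate-limiting enzyme that salvages it. Nampt had 83.3 to 126 CPM at 08:00 and 64.4 to 78.9 CPM at 20:00, which did not overlap (-0.54 ± 0.11, edgeR adjusted p = 0.00754). Nmrk1, a kinase that feeds nicotinamide riboside into the same pool, fell by 0.74, and Nadsyn1, of the synthesis from tryptophan, by 0.52. The mitochondrial sirtuins Sirt5 and Sirt3 fell by 0.78 and 0.47, and Nmnat3, Nmnat1 and Nudt7 by 0.55, 0.38 and 0.86. Cd38, an enzyme that consumes NAD, was the higher member (0.57 ± 0.14, edgeR adjusted p = 0.0244), and Sirt1 was not called (0.11 ± 0.17). In refits without 1 library the calls of Nmnat1 and Nmnat3 were lost in 9 of 12, of Sirt3 in 6, of Nudt7 in 4 and of Cd38 in 3, with the highest edgeR adjusted p, 0.108, for Nmnat1 without male 20:00 replicate 2. Without the male library that stood apart 5 were lower and 1 higher.

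Of 20 genes of heme and iron handling, 4 were lower at 20:00 and 1 higher, beside 4.85% and 3.92% of all genes. Alas1, the rate-limiting enzyme of heme synthesis, had 861 to 1180 CPM at 08:00 (median 992) and 197 to 528 CPM at 20:00 (median 272), without overlap, and was 3.33-fold higher at 08:00 (log2 -1.74 ± 0.19, edgeR adjusted p = 3.61e-05). The next enzymes of the pathway, Alad and Urod, fell by 0.64 and 0.32. The ferritin light chain Ftl1 was called lower (-0.55 ± 0.16) and the reductase Steap4 higher (0.72 ± 0.17), but those calls were lost in 10 and 1 of 12 refits without 1 library, with edgeR adjusted p up to 0.117 and 0.0565, both without male 08:00 replicate 1. Urod lost its call in 9 of 12 (edgeR adjusted p up to 0.135 without male 20:00 replicate 2). Without the male library that stood apart 2 members were lower and 1 higher. Cytochrome P450 enzymes carry heme, and of 30 xenobiotic genes Cyp2a5 was the member called, with 460 to 2730 CPM at 08:00 and 115 to 855 CPM at 20:00 (-2.03 ± 0.34, edgeR adjusted p = 0.00307). Cyp2a5 has close copies in the genome, so its read count is uncertain.

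In mitochondria, Clpx stood apart from other chaperones and proteases. Clpx, the unfoldase of the ClpXP protease, which also activates ALAS, had 57.6 to 78.4 CPM at 08:00 (median 63.5) and 330 to 435 CPM at 20:00 (median 381), with a log2 difference of 2.56 ± 0.11 (edgeR adjusted p = 1.12e-09). Counts of the mitochondrial and ribosomal protein lists stand beside 3.92% higher and 4.85% lower of all genes. Of 15 mitochondrial chaperones and proteases, 1 was higher and 4 lower, Timm10 (-0.57 ± 0.13), Grpel1 (-0.40 ± 0.09), Phb2 (-0.49 ± 0.13) and Afg3l2 (-0.31 ± 0.09). Phb2 lost its call in 6 of 12 refits without 1 library (edgeR adjusted p up to 0.0821 without male 20:00 replicate 2) and Afg3l2 in 10 (up to 0.11 without female 20:00 replicate 2), and 2 members were lower without the male library that stood apart. Of 31 genes of the respiratory chain and of 31 cytosolic ribosomal proteins edgeR called 0, with 9 and 7 at an unadjusted p under 0.05 (limma-voom called 0 in both, DESeq2 1 and 0). In each list 30 of the 31 differences were negative, with medians of -0.16 and -0.17, and with library totals the medians were -0.08 and -0.10 beside 0.08 over all genes.

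Counts of chaperone genes of the cytosol and the endoplasmic reticulum, and of the proteasome and interferon lists, stand beside 3.92% higher and 4.85% lower of all genes. Of 25 heat shock genes 2 were higher, Hsp90aa1, from 99.3 to 189 CPM at 08:00 to 212 to 336 CPM at 20:00 (log2 0.84 ± 0.17, edgeR adjusted p = 0.00648), and Hspa4l (0.82 ± 0.14, edgeR adjusted p = 0.00186). With library totals 5 were higher. Of 30 genes of the unfolded protein response 1 was higher, Hyou1 (0.65 ± 0.16), and 1 lower, Sec61b (-0.49 ± 0.13), and both calls were lost in some refits without 1 library (2 and 5 of 12, with edgeR adjusted p up to 0.0614 without male 08:00 replicate 1 and 0.0777 without male 20:00 replicate 2). In that list 25 of 30 differences were positive, with a median of 0.17. Of 30 proteasome genes 4 were lower and 1 higher, Psmd11 (0.46 ± 0.09, edgeR adjusted p = 0.00482). The lower members were core particle subunits, Psmb2, Psma7, Psmb5 and Psmb3, at -0.34 to -0.44, and each lost its call in 6 to 9 of 12 refits without 1 library (edgeR adjusted p up to 0.127, for Psmb3 without male 20:00 replicate 2). With library totals 0 of them were called (the list median went from -0.15 to -0.08), and without the male library that stood apart 1 was. The immunoproteasome subunits Psmb9 and Psmb10, of the interferon list, fell by 0.84 and 0.71, and the peptide transporters Tap1 and Tap2 by 0.56 and 0.48, while Rsad2 and Stat2 rose by 0.97 and 0.37 (4 lower and 2 higher of 36 tested). The calls of Tap1 and Tap2 were lost in 7 and 10 of 12 refits without 1 library (edgeR adjusted p up to 0.099 and 0.116, both without male 20:00 replicate 1). The calls of Rsad2 and Stat2 were lost in 1 and 6 of 12 refits without 1 library, with edgeR adjusted p up to 0.0503 without male 08:00 replicate 1 and 0.0666 without male 20:00 replicate 1.

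Of 22 immediate early genes, which cells switch on within minutes of a stimulus, 5 were higher at 20:00 and 0 lower, beside 3.92% and 4.85% of all genes: Fosl2 (0.87 ± 0.17), Ier5 (0.89 ± 0.20), Fosb (2.21 ± 0.55), Egr1 (0.93 ± 0.23) and Egr2 (1.40 ± 0.38). Fosb was between 0.274 and 1.30 CPM at 08:00 and between 0.510 and 12.8 CPM at 20:00, and the 2 highest values were both male. Fosb and Egr1 lost their calls in 4 and 3 of 12 refits without 1 library (edgeR adjusted p up to 0.0846 and 0.0679, both without male 08:00 replicate 1) and Egr2 in 5 (up to 0.0777 without male 20:00 replicate 2), and 3 members were called without the male library that stood apart. Cdkn1a (p21), which halts the cell cycle, ran from 1.95 to 34.5 CPM at 08:00 and from 44.8 to 208 CPM at 20:00, without overlap (log2 3.27 ± 0.54, edgeR adjusted p = 0.00511). The library with its lowest value was the male one of 08:00 that stood apart, and the other males of that time had 27.6 and 34.5 CPM. Igfbp1, which binds insulin-like growth factors and is repressed by insulin, had 24.3 to 75.5 CPM at 08:00 and 55.2 to 243 CPM at 20:00 (log2 1.92 ± 0.41, edgeR adjusted p = 0.0179). With Ddit4 (1.17 ± 0.28) and Sesn3 (0.43 ± 0.10), both inhibitors of mTORC1, it made up the 3 higher of 22 genes of insulin and growth factor signalling, of which 0 were lower, again beside 3.92% and 4.85% of all genes. Igfbp1 and Ddit4 each lost the call in 1 refit, without male 20:00 replicate 2 (edgeR adjusted p = 0.0563 and 0.0632). Stat5b and Stat5a, which carry the growth hormone signal, rose by 0.64 ± 0.10 and 0.51 ± 0.13.

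Other genes with large differences belonged to no single pathway. Higher at 20:00 were the manganese exporter Slc30a10 (2.07 ± 0.12), the threonyl-tRNA synthetase Tars (1.37 ± 0.10), the decarboxylase Ddc (1.63 ± 0.12), the ubiquitin ligase Dtx4 (2.48 ± 0.19) and the glycine cleavage enzyme Gldc (1.32 ± 0.16). All 6 libraries of 20:00 were above all of 08:00 in each of these 5 genes. Tars was the 1 member called of 20 tRNA synthetases, beside 3.92% higher and 4.85% lower of all genes. Adenylate cyclase Adcy1 (3.21 ± 0.53), the retinol dehydrogenase Dhrs9 (3.58 ± 0.36), the matrix protein Npnt (3.36 ± 0.35) and the oxidase Loxl4 (2.73 ± 0.44) rose from medians under 1 CPM. The phosphate transporter Slc34a2 rose by 3.59 ± 0.78 and lost its call without male 08:00 replicate 1 (edgeR adjusted p = 0.0502). Lower at 20:00 were the glutamine transporter Slc38a3, with 1530 to 2730 CPM at 08:00 and 509 to 1190 CPM at 20:00 (-1.64 ± 0.16), the vitamin transporter Slc5a6 (-1.82 ± 0.12), the convertase Pcsk4 (-2.48 ± 0.26), the transducin Gnat1 (-3.22 ± 0.34), the growth factor Nrg4 (-1.29 ± 0.13) and the corticosteroid binding globulin Serpina6 (-1.34 ± 0.24). Cyp2g1 was called lower (-2.35 ± 0.57) but not in 4 of 12 refits without 1 library (edgeR adjusted p up to 0.0648 without male 20:00 replicate 2). Mup7 was called lower (-3.02 ± 0.65), but it was at or under 0.265 CPM in all females and belongs to a family of near-identical urinary protein genes, so its count is uncertain. Its call was lost under 6 of 24 alternatives: it differed by -1.26 with DESeq2 and by -0.55 with the authors' second count table (MAX), and the edgeR adjusted p was 0.976 when all 72 libraries were fitted.

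**Figure D3:**
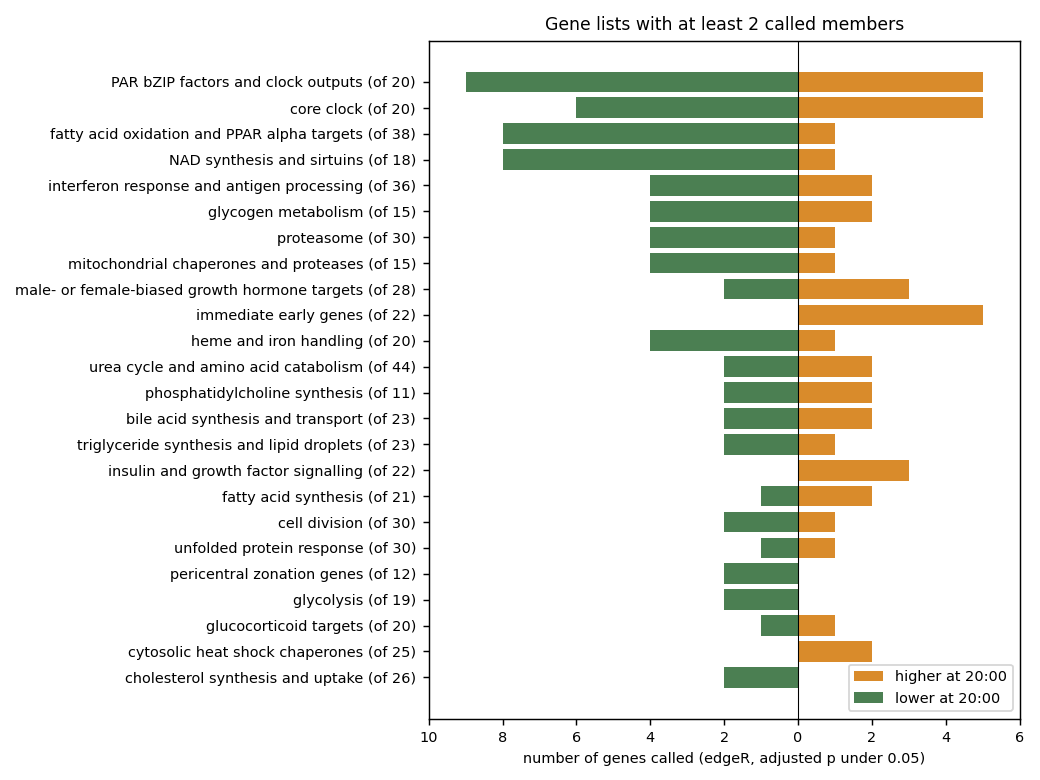
Number of genes called higher (to the right) or lower (to the left) at 20:00 in each gene list with at least 2 called members, with the number tested in parentheses. The clock lists have 14 and 11 called members, and the lists of fatty acid oxidation and of NAD synthesis each have 8 lower and 1 higher.

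Counts of the acute phase, apolipoprotein, zonation and bile acid lists stand beside 3.92% higher and 4.85% lower of all genes. Of 24 acute phase genes and of 19 apolipoprotein genes edgeR called 0, with medians of 0.33 and -0.26 and 6 and 2 at an unadjusted p under 0.05 (limma-voom called 0 in both, DESeq2 0 and 1). Of 12 periportal genes edgeR called 0 (2 at an unadjusted p under 0.05, and 0 by limma-voom and DESeq2), while of 12 pericentral genes 2 were lower, Lhpp (-1.05 ± 0.29) among them. The call of Lhpp was lost under 11 of 24 alternatives, most of them refits without 1 library (edgeR adjusted p up to 0.107). The median of the pericentral genes was -0.65, 11 of the 12 differences were negative and 9 had an unadjusted p under 0.05. DESeq2 called 7 of them lower and limma-voom 2, and edgeR called 0 without the male library that stood apart. Of 23 bile acid genes 2 were higher and 2 lower, and Cyp7a1, the rate-limiting enzyme of bile acid synthesis, ran from 16.3 to 222 CPM at 08:00 and from 7.51 to 115 CPM at 20:00 and was not called (-0.99 ± 0.68).

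Whole liver holds several cell types, and in bulk RNA fewer cells of a type cannot be told apart from less RNA per cell. Of 12 Kupffer cell and macrophage markers 2 were called higher at 20:00, beside 3.92% of all genes, and the median of the 12 was 0.25. The called markers were Adgre1 (F4/80; 0.81 ± 0.14, not called when all 36 control libraries or all 72 libraries were fitted, with an edgeR adjusted p up to 0.124) and Csf1r (0.45 ± 0.13, called in 4 of 12 refits without 1 library, with an edgeR adjusted p up to 0.119 without male 20:00 replicate 1). Without the male library that stood apart 1 marker was called, as by limma-voom, and DESeq2 called 4. The summed level of the 12 was 714 to 1170 CPM at 08:00 and 1070 to 1440 CPM at 20:00. Sox9, of the bile duct list, was called higher (1.41 ± 0.27), while the summed level of that list overlapped (59.2 to 444 CPM at 08:00, 71.0 to 389 CPM at 20:00). Of 10 endothelial and 13 lymphocyte markers edgeR called 0 (3 and 3 at an unadjusted p under 0.05; limma-voom called 0 and DESeq2 1 in each), and of 12 stellate markers 1, Dcn (0.48 ± 0.13), which lost its call in 8 of 12 refits without 1 library (edgeR adjusted p up to 0.0897 without male 20:00 replicate 1). The neutrophil marker Ly6g and the acinar markers Cpb1, Ctrb1 and Prss2 were at 0 in all 12 libraries. The part of these cell types in the immediate early and interferon results was not tested.

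Reads within introns, which come largely from unspliced RNA, were counted apart in the same livers. Of 9716 genes tested on intron counts, 151 (1.55%) were higher and 108 (1.11%) lower at 20:00. These counts come from the same RNA samples as the gene counts, so they are not independent of them. Of the 551 higher genes 392 were tested on introns, and 379 had the same sign and 105 were called in the same direction. Of the 682 lower genes 586 were tested, with 515 of the same sign and 65 called, and 0 genes of either group were called in the opposite direction. Arntl introns differed by 4.42 ± 0.30, Chka introns by 3.43 ± 0.24, Clpx introns by 2.56 ± 0.19, Dbp introns by -6.75 ± 0.40 and Alas1 introns by -1.86 ± 0.22 on the log2 scale, all called. For Clock the intron difference was 0.41 ± 0.30 (edgeR adjusted p = 0.534), beside 1.29 ± 0.10 for gene counts. Sirt5 introns (0.13 ± 0.26), Cpt1a introns (-0.31 ± 0.27) and Pnpla2 introns (-0.26 ± 0.27) were not called either. The difference between intron and gene counts was not tested.

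Control livers of the other clock times share no library with the comparison above. Between 00:00 and 12:00, 949 genes (6.78%) were higher and 750 (5.36%) lower at 00:00, of 14002 tested. Of the genes higher at 20:00, 547 were tested there, 478 (87.4%) were also higher at 00:00 and 273 were called so, while 4 were called the other way. Of the genes lower at 20:00, 677 were tested, 578 (85.4%) were also lower at 00:00 and 223 were called so, while 8 were called the other way. Positive differences made up 50.5% of all genes in that comparison. Between 16:00 and 04:00 the calls were fewer, 291 (2.07%) higher and 218 (1.55%) lower at 16:00, and 371 of 544 higher genes (68.2%) and 390 of 677 lower genes (57.6%) kept their sign, beside 51.0% positive differences over all genes. Over the 4 other clock times, 56.8% of the higher genes had their highest mean at 00:00 (22.4% of all genes tested) and 60.0% of the lower genes at 12:00 (28.2% of all genes tested).

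Single genes followed different courses. Scaled over all 72 libraries, Arntl was 34.4 ± 4.12 CPM at 00:00 (mean ± SD, n = 6), 7.99 ± 5.25 at 04:00, 1.45 ± 0.597 at 08:00, 2.96 ± 1.88 at 12:00, 20.9 ± 4.48 at 16:00 and 33.7 ± 6.64 at 20:00. Dbp was highest at 08:00 (113 ± 22.5 CPM) and stood at 1.67 ± 0.782 CPM at 00:00. Nr1d1 was highest at 04:00 (92.0 ± 36.7 CPM) and still 44.0 ± 20.9 CPM at 00:00, and it fell between 04:00 and 16:00 (log2 16:00 minus 04:00 -3.96, edgeR adjusted p = 1.66e-05) and was not called between 00:00 and 12:00 (0.72, edgeR adjusted p = 0.24). Cry1 was highest at 16:00 (41.2 ± 10.8 CPM) and 20:00 (39.2 ± 11 CPM) and differed between 16:00 and 04:00 by 3.00 on the log2 scale (edgeR adjusted p = 0.000133), but not detectably between 00:00 and 12:00 (0.27, edgeR adjusted p = 0.436). Per2 was 54.1 ± 18.3 CPM at 08:00, 63.1 ± 22.6 at 12:00 and 65.5 ± 29.5 at 16:00, and 28.3 ± 8.25 CPM at 20:00. Heat shock genes showed more calls at another pair of times: 13 of 25 between 16:00 and 04:00 against 2 between 20:00 and 08:00. Over all genes 2.07% were higher and 1.55% lower at 16:00, and 3.92% and 4.85% at 20:00. Genes of the unfolded protein response had 16 of 30 called between 00:00 and 12:00 against 2 between 20:00 and 08:00. Over all genes 6.78% were higher and 5.36% lower at 00:00.

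**Figure D4:**
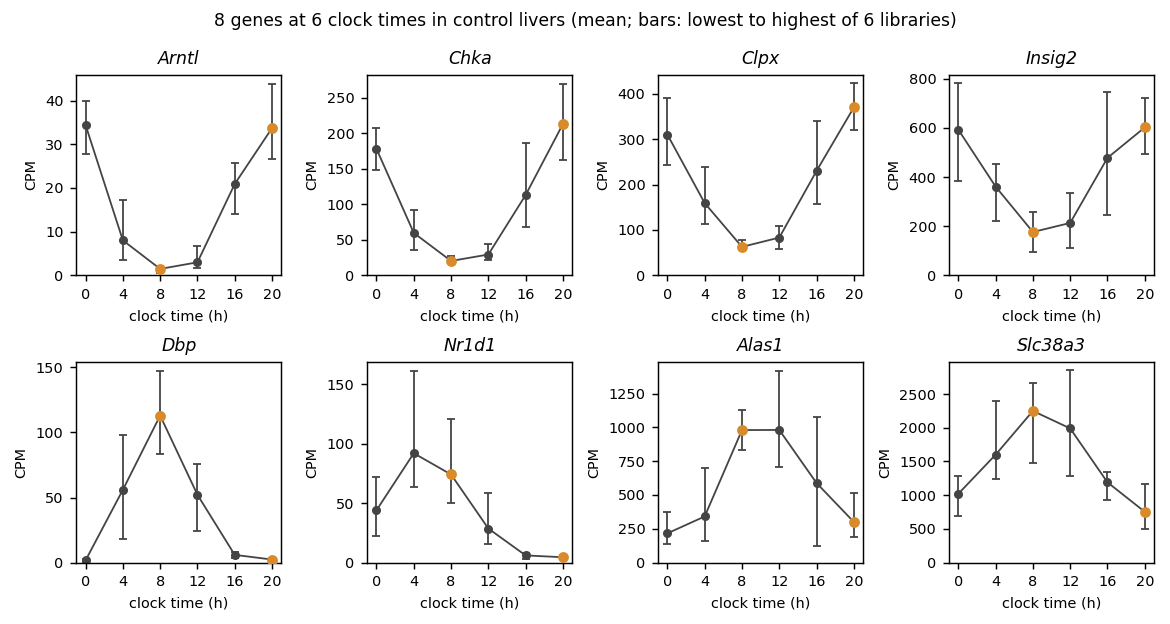
CPM of 8 genes in control livers against clock time in hours, scaled over all 72 libraries, with the mean of 6 libraries as a point and bars from the lowest to the highest library. The points of 08:00 and 20:00 are coloured. Arntl, Chka, Clpx and Insig2 have their lowest mean at 08:00, and Nr1d1 has its highest at 04:00 rather than at 08:00.

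The sexes were compared by the difference of their differences. edgeR called 0 of 14065 genes (0%), with 1113 at an unadjusted p under 0.05, where limma-voom called 0 and DESeq2 21. The median standard error of this difference was 0.31, against 0.16 for the difference itself. Counts were also simulated with 200 of 14065 genes changed and no other effect of sex or clock time, unlike these livers. In that simulation genes with a log2 sex difference of 1 were recovered in 17.2% of cases, so moderate differences could often be missed. The smallest adjusted p belonged to Mapk15, which had 5.12 to 5.67 CPM at 08:00 and 12.3 to 13.1 CPM at 20:00 in females, and 6.97 to 11.1 and 5.50 to 7.20 CPM in males (male minus female -1.89 ± 0.28, edgeR adjusted p = 0.115). Next came Rragd, which signals amino acids to mTORC1 (2.56 ± 0.43), Gas1, Adra1b, Steap4 and the lipase Lipe (-1.48 ± 0.27), none of which passed the test. Some clock genes had close values: Dbp differed by -5.48 in females and -5.76 in males and Npas2 by 6.62 and 6.605. Others were further apart: Arntl differed by 5.10 and 4.00, and Cry1 by 2.48 and 1.91 in fits within each sex. Outside the clock lists, Chka differed by 3.40 and 3.41.

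Misaligned mice of the same sex were sampled at the same 2 clock times, and their differences were set against those of the controls. These comparisons use the same control libraries as the one above, so the values are given side by side. In females edgeR called 0 of 13728 genes (0%), with 598 at an unadjusted p under 0.05, where limma-voom called 0 and DESeq2 16, and the smallest edgeR adjusted p was 0.447. Misaligned females had a difference of 7.06 ± 0.41 for Npas2, -5.64 ± 0.74 for Dbp and -4.06 ± 0.26 for Per3, beside 6.62, -5.48 and -2.78 in control females. Nr1d1 was at -1.36 ± 0.73 beside -4.25, which did not pass the test.

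In males 1414 of 13961 genes (10.1%) had a difference that itself differed from that of control males, 848 towards higher and 566 towards lower values. The count depended on single libraries: it was 519 without control 08:00 replicate 1, 901 without control 08:00 replicate 2, 628 without control 20:00 replicate 1, 466 without control 20:00 replicate 2, 543 without misaligned 08:00 replicate 3, 934 without misaligned 20:00 replicate 2 and 557 without misaligned 20:00 replicate 3. Of 20 core clock genes 8 were called. Npas2 differed by 6.605 between 20:00 and 08:00 in control males and by -0.99 ± 0.63 in misaligned males (difference of differences -7.60 ± 1.08, edgeR adjusted p = 0.00224). Clock went from 1.33 to -0.36 (edgeR adjusted p = 0.00071), Ciart from -3.88 to 1.80 (edgeR adjusted p = 0.00549), Per3 from -3.27 to 1.01 (edgeR adjusted p = 0.00377) and Per2 from -0.98 to 0.82 (edgeR adjusted p = 0.00491). For Arntl the values were 4.00 and 0.14, for Nr1d2 -2.49 and 0.08 and for Cry2 -0.66 and 0.46. Those 3 calls were lost in 10, 6 and 3 of 12 refits that left out 1 library each, with edgeR adjusted p up to 0.113 without control 08:00 replicate 1, 0.0792 without control 20:00 replicate 2 and 0.0536 without misaligned 20:00 replicate 3. Nr1d1 (-3.80 and -1.33) and Cry1 (1.91 and 1.52) did not pass the test. Among clock outputs Tef went from -2.16 to 0.83, Usp2 from -2.53 to 2.77, Wee1 from -1.52 to 1.03 and Por from -1.96 to 1.61, all called. Dbp, at -5.76 and 0.80 ± 0.84, was called (edgeR adjusted p = 0.0216) but not in 3 of the 12 refits (up to 0.0712 without control 20:00 replicate 2). Por had the smallest p of all genes (edgeR adjusted p = 0.000183), with Marveld1, Fbf1, Slc9a3r1 and the defensin Defb1 among the next. Over the genes higher at 20:00 in controls, the median difference was -0.28 in misaligned males and 0.42 in misaligned females, and over those lower it was 0.25 and -0.29, beside -0.01 and 0.01 over all genes tested.

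**Figure D5:**
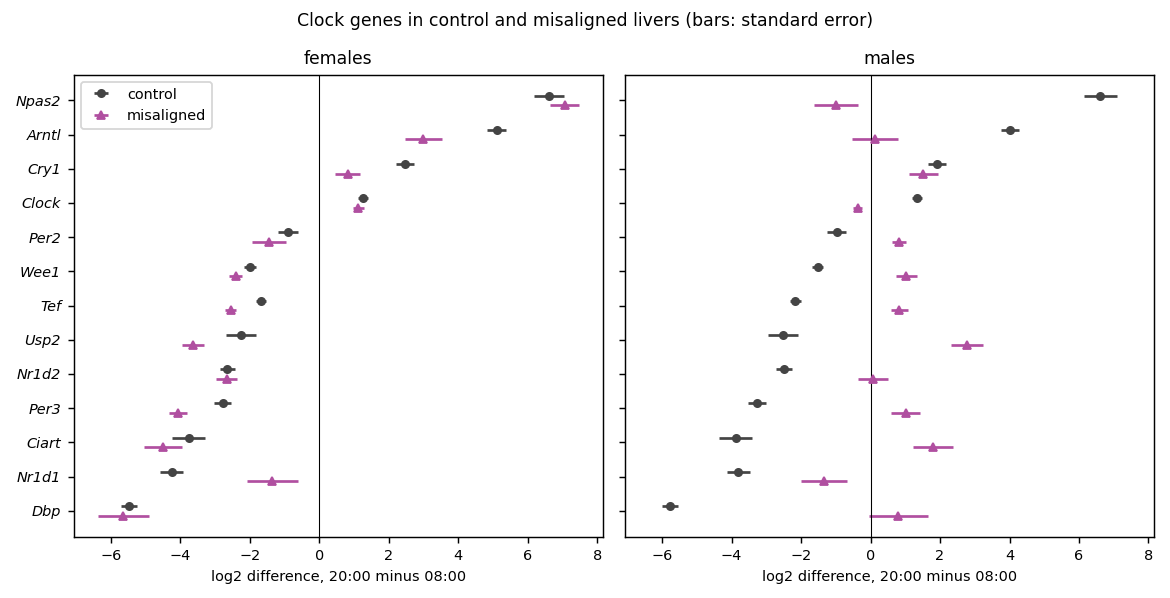
Log2 difference between 20:00 and 08:00 for 13 clock genes in females (left) and males (right), with circles for control and triangles for misaligned livers and bars for 1 standard error. In females both treatments lie on the same side of 0 for all 13 genes, and in males Npas2, Clock, Per2, Wee1, Tef, Usp2, Per3, Ciart and Dbp lie on opposite sides, while Arntl and Nr1d2 of misaligned livers lie near 0.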

How the data were processed

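Liver RNA libraries, poly(A) selected and stranded per the labels' protocols, were aligned with STAR 2.6.0c to GRCm38 per the submitters' processing notes. The authors deposited whole-number read counts per gene (27846 genes, sense strand, the table named MIN) and per intron, with nearly equal totals in all libraries. How the totals came to be so is not given in the sources used here. No annotation release is given in the sources used here, and gene positions are GENCODE vM21 on GRCm38. Groups came from the labels. Genes were kept with edgeR's filterByExpr, scaled with TMM factors and tested with edgeR 4.0.16 (R 4.3.3; robust quasi-likelihood, sex as covariate, 9 residual degrees of freedom), with Benjamini-Hochberg adjustment over all genes and a threshold of 0.05. Differences between sexes and between misaligned and control livers came from fits of 4 group means with 8 residual degrees of freedom. CPM values use TMM-scaled library sizes, and standard errors of log2 differences were derived from the F statistic. Intron counts were summed per gene by symbol.

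The gene lists and the rule for named genes were chosen with earlier results of these data known. Named genes were the 12 largest called differences in each direction with a mean of at least 2 CPM, the 10 smallest p in each direction, up to 4 called members per list, every core clock gene, and the 6 smallest p of each difference between groups, without predicted genes and pseudogenes. Further called list members named in the text were chosen after their values were seen. Results for some genes are not reported here, though they stay in the counts. Alternatives were other scaling, filters, tools (DESeq2 1.42.0, limma 3.58.1), designs, the deposited MAX counts, whose totals are higher, and leaving out each library. Simulated data had 200 of 14065 genes changed around 1 mean per gene, with no other effect of sex or clock time. For the comparison of clock times, 75.5% of genes changed by 1 and 95.9% of those changed by 2 on the log2 scale were recovered. For the sex difference these shares were 17.2% and 75.5%.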

Additional observations from a re-analysis of the deposited data

Results flagged for a closer look

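Among 272 groups of 6 libraries (the named genes at each clock time), 17 (6.2%) held a library far from the others, and chance flags about 1 in 20. At 08:00 the highest library stood apart for Adcy1 (5.75 CPM, female replicate 1), Nrg4 (21.8 CPM, female replicate 1), Clpx (78.4 CPM, female replicate 3), Psmb9 (38.9 CPM, male replicate 1), Akr1c19 (81.6 CPM, male replicate 2), Rec114 (1.49 CPM, male replicate 2), Timm10 (19.2 CPM, male replicate 2), Csnk1e (14.3 CPM, male replicate 3) and Gclc (358 CPM, male replicate 3). The lowest library of 08:00 stood apart for Phka2 (27.7 CPM, male replicate 1) and Pdk2 (135 CPM, male replicate 3). At 20:00 the highest stood apart for Marveld1 (43.4 CPM, female replicate 1), Per1 (71.1 CPM, female replicate 1), Slc25a1 (215 CPM, female replicate 3), Sox9 (11.4 CPM, male replicate 2) and Pnldc1 (4.5 CPM, male replicate 3), and the lowest for Clock (27.2 CPM, female replicate 3).

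The difference between 20:00 and 08:00 itself differed between misaligned and control males for 1414 genes by edgeR's test. Flagged genes were called core clock genes and genes among the 6 with the smallest p, so called clock outputs such as Dbp are not listed here. The values are differences of differences on the log2 scale, misaligned minus control, and not levels. They were positive for Ciart (5.67), Per3 (4.28), Por (3.57), Fbf1 (2.86), Nr1d2 (2.57), Slc9a3r1 (2.00), Marveld1 (1.82), Per2 (1.80) and Cry2 (1.11). They were negative for Npas2 (-7.60), Arntl (-3.87), Defb1 (-3.36) and Clock (-1.69).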

How the results depend on the processing

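Other scaling by size factors, filters, DESeq2, limma-voom, the older edgeR dispersion and the MAX counts gave 487 to 802 higher and 574 to 937 lower genes. Library totals gave 403 lower genes, and requiring a log2 difference of at least 1 left 162 higher and 102 lower. Without the sex covariate 353 were higher and 401 lower. Fitting all 36 control libraries gave 1124 lower, and all 72 libraries 876 higher and 1137 lower. Leaving out 1 library gave 345 to 866 higher and 312 to 1038 lower genes, and the cause of these shifts was not tested. Replicate numbers did not mark pairs (correlations of deviations -0.324 to 0.11), and a replicate block gave 282 higher and 276 lower genes, 0 for the sex difference and for misaligned females, and 723 for misaligned males. For the sex difference DESeq2 called 21 genes, edgeR without the low-count filter 2, and edgeR 0 to 1 when 1 library was left out. For misaligned females DESeq2 called 16. For misaligned males all 72 libraries gave 2363, and leaving out 1 library 466 to 2045. Of 116 called named genes, 69 were called under every alternative that tested them (23 or 24 each), 47 were lost under at least 1, and 0 changed sign. Bhlhe40 and Arntl2, not called, changed sign when 1 library was left out (-0.061 to 0.106 and -0.132 to 0.292). Size factors and limma-voom for the other clock times and introns were chosen after seeing the data, and each of those counts stayed within 1.5 times. With 3 libraries per group the median standard error was 0.158, which limits what small differences can show.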
